A study of Rattus norvegicus with 6 samples.

Results

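The p53 targets and apoptosis genes described here are 30 genes: direct targets of the tumour suppressor p53, the Gadd45 family and core genes of apoptosis. They were chosen by name, with earlier results of these data known. The array measured 27 of them, of which 25 were bright enough to test among 31190 transcripts tested in all. The RNA was extracted from kidney cortex of Sprague-Dawley rats, all male and 5 weeks old at purchase. In the treated group, 3 rats received carbon tetrachloride at 100 mg/kg/day for 4 weeks, and in the control group 3 rats received corn oil for the same time. Carbon tetrachloride is a solvent that cytochrome P450 enzymes convert to radicals. Benzyl acetate is the agent in the submitters' design text, whereas carbon tetrachloride stands in the title, in every label and in the protocol, and is used here. Each rat gave 1 single-colour Agilent array, and precision is limited by having 3 arrays a group.

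p53 is a transcription factor that is held at a low level by the ubiquitin ligase MDM2 and is stabilised when DNA is damaged or a cell is otherwise stressed. It then turns on genes that stop the cell cycle, repair DNA or start apoptosis through mitochondria, and it also turns on Mdm2, which closes a negative feedback loop. In the kidney the p53 target Cdkn1a is well known for its induction in tubule cells after acute injury. All values here are log2 of the spot signal relative to the 75th percentile of signal on the same array, so a difference of 1 is a doubling. They were set against each other between arrays for 1 probe at a time and not between genes. A fold change is carbon tetrachloride minus corn oil.

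p53 binds pairs of a decamer with a known consensus, which reads the same on both strands. The consensus was searched for, with no mismatch, in the 300 bases of each RefSeq promoter of the assembly GRCr8, from 250 bases before to 50 bases after the start of the gene. The table held 24 of the 30 genes, and 6 of these promoters (25%) contained the decamer, each 1 time, as did 7.98% of all 33469 promoters. The 6 genes were Cdkn1a, Gadd45a, Sesn1, Ccng1, Ei24 and Aen. The stretch around the decamer is shown for the 5 of them that were tested on the arrays. A single decamer is 1 part of the pair that p53 binds. A second copy with mismatches was not searched for. Capitals mark the decamer, and all are written 5′ to 3′ on the strand of the gene.
Cdkn1a, chr20:7150711-7150770, + strand: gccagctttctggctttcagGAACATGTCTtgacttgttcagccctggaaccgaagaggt
Gadd45a, chr4:97486808-97486867, - strand: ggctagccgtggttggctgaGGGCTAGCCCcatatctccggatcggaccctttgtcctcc
Ccng1, chr10:25685069-25685126, - strand: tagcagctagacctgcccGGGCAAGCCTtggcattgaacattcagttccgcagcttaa
Ei24, chr8:44699411-44699470, - strand: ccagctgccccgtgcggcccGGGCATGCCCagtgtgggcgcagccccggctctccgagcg
Aen, chr1:142224483-142224542, + strand: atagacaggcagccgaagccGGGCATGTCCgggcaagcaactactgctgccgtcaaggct
Counted from the gene start, the decamer began at position -201 in Cdkn1a, -48 in Gadd45a, -232 in Ccng1, -79 in Ei24 and -30 in Aen. A match describes letters, not binding, and p53 sites farther upstream or in introns lie outside these windows.

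The arrays resembled each other closely. Of 61537 probes, 68.5% to 72.1% per array were flagged as well above background. Pearson's r across probes was 0.9914 to 0.9928 among carbon tetrachloride arrays, 0.9917 to 0.9932 among corn oil arrays and 0.9906 to 0.9937 for pairs of unlike treatment. Carbon tetrachloride replicate 3 lay alone on a second slide with a scan of its own. The other 5 arrays shared slide 1, with carbon tetrachloride replicates 1 and 2 in array row 2 and the 3 corn oil arrays in row 1, so row and treatment cannot be told apart there. All 11 proximal tubule markers were bright enough to test, among them Kap at 9.28 ± 0.034 in carbon tetrachloride rats and 9.19 ± 0.11 in corn oil rats (SD, n = 3 each). The 10 distal nephron markers were bright enough as well, and no other region of the kidney was compared. In bulk tissue, fewer cells of a type and less RNA per cell cannot be told apart.

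Whether carbon tetrachloride altered the p53 response was asked of all 25 tested genes together with every other transcript. None passed an adjusted p of 0.05 in limma (Benjamini-Hochberg over 31190 transcripts), and the lowest adjusted p among them was 0.775. Over all transcripts 1 passed (0.00321%), a transcript with no gene symbol here that is not among these genes. Of the 25 genes, 12 had a positive and 13 a negative fold change, with a median of -0.0014, a lowest value of -0.23 for Gadd45g and a highest of 0.39 for Tp53inp1. The median over all transcripts was 0.0077, and 52.3% of them had a positive value. With each gene taken by its brightest probe, there was 1 gene at an unadjusted p under 0.05, Tp53inp1, and it was higher in carbon tetrachloride rats. A dimmer probe of Cdkn1a that also lay under it is given below. Of all transcripts 6.3% lay under that p, 3.67% higher and 2.63% lower. With slide as a block the only gene under it was Gadd45a instead, lower in carbon tetrachloride rats at -0.19 with an unadjusted p of 0.0405 in limma. By the brightest probe, the values of both groups did not overlap for 1 gene, Zmat3, which was higher in carbon tetrachloride rats, against 12.8% of all transcripts, 7.54% higher and 5.27% lower. Both counts are no larger than the background share would give.

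**Figure D1:**
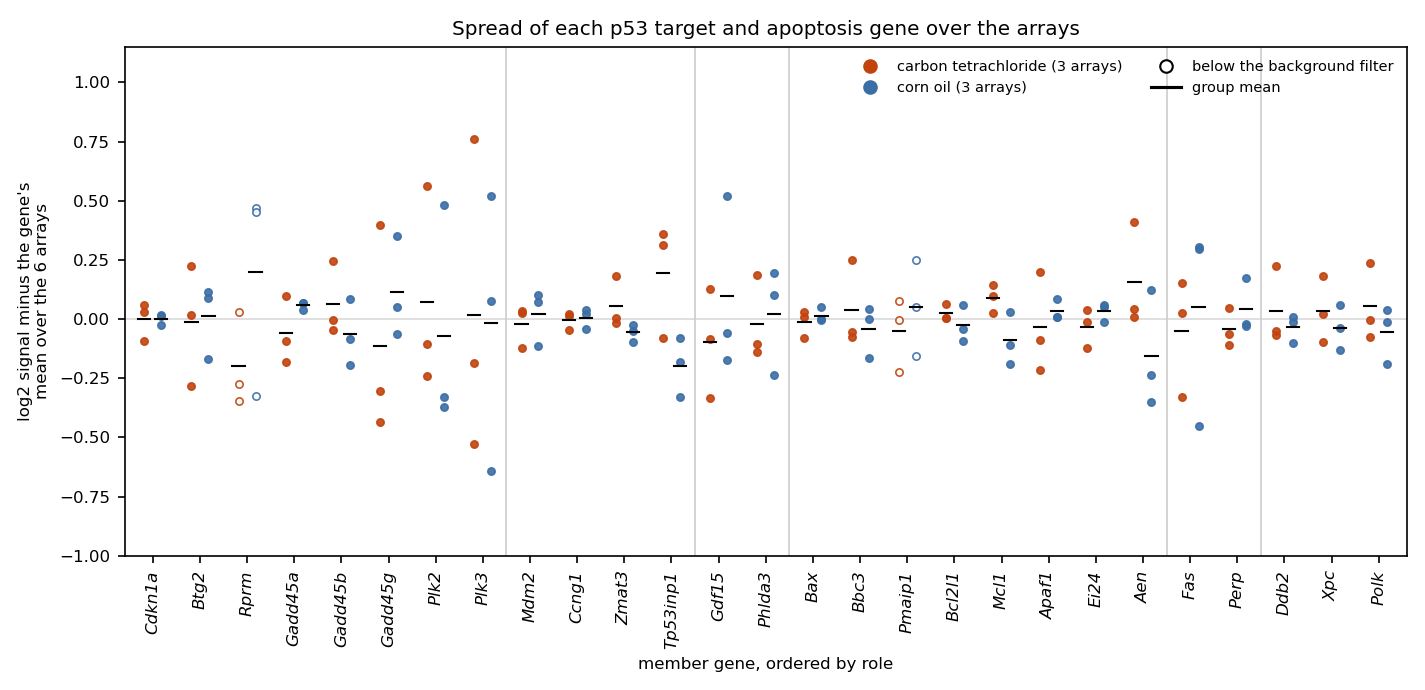
Log2 signal of each of the 27 genes with a probe, by its brightest probe, minus the gene's own mean over the 6 arrays. Carbon tetrachloride arrays lie to the left of corn oil arrays, with points for arrays and bars for group means. Open points mark Rprm and Pmaip1, which did not pass the background filter, and the points of the other 25 genes overlap between the groups except for Zmat3.

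In the median over the set, no single treated rat stood apart. Relative to the corn oil mean of each gene, the median of the 25 genes was -0.0037, 0.017 and 0.014 on carbon tetrachloride arrays 1 to 3, and -0.019, 0.014 and 0.0091 on corn oil arrays 1 to 3. On the 3 carbon tetrachloride arrays 12, 15 and 16 of the 25 genes lay above that mean, against 12, 14 and 13 on the corn oil arrays. The SD of the deviations of these genes was widest on carbon tetrachloride array 1, with 0.28, 0.21 and 0.22 on arrays 1 to 3. Over all transcripts it was 0.30, 0.36 and 0.35 there. On corn oil arrays 1 to 3, which are measured from their own mean, it was 0.14, 0.16 and 0.23 for these genes. The SD within groups, as moderated by limma, had a median of 0.137 for these genes and 0.136 for all transcripts. Moderation draws each SD towards a value common to all transcripts, so part of this likeness is built in.

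In the feedback arm of the pathway, Mdm2 and Ccng1 differed by less than their spread between rats. Mdm2, the ubiquitin ligase that p53 induces against itself, was at 0.68, 0.83 and 0.83 in carbon tetrachloride rats and at 0.69, 0.87 and 0.90 in corn oil rats. The groups overlapped, and the fold change was -0.039 ± 0.09 (SE, n = 3 each, 95% interval -0.26 to 0.18). Ccng1, which encodes cyclin G1, a regulator of MDM2 and a well-known p53 target, was at 1.93, 1.86 and 1.92 in carbon tetrachloride rats and at 1.93, 1.87 and 1.95 in corn oil rats. The groups overlapped, the 6 values spanned less than those of any other tested gene of the set, and the interval of the fold change ran from -0.17 to 0.15. The decamer in its promoter is printed above.

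Zmat3, an RNA-binding zinc finger protein induced by p53, was the gene whose groups separated by its brightest probe. It was at 1.35, 1.37 and 1.55 in carbon tetrachloride rats and at 1.31, 1.27 and 1.34 in corn oil rats. The lowest treated value lay just above the highest control value, and the fold change was 0.11 ± 0.079 with a limma adjusted p of 0.835. Within slide 1 it was 0.050, and with median scaling of the arrays or normexp background correction the groups overlapped. Tp53inp1, a nuclear protein that promotes autophagy and the apoptotic function of p53, had the largest fold change. It was at -0.86, -1.30 and -0.91 in carbon tetrachloride rats and at -1.55, -1.40 and -1.30 in corn oil rats. Carbon tetrachloride replicate 2 reached the corn oil range and the other treated values lay above it. The fold change was 0.39 ± 0.14 (95% interval 0.045 to 0.74), the unadjusted p in the limma fit was 0.0327 and the adjusted p was 0.775. Within slide 1 the fold change was 0.34.

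Among the genes of growth arrest, Cdkn1a, which encodes the cyclin-dependent kinase inhibitor p21, was at 5.05, 5.08 and 4.93 in carbon tetrachloride rats and at 5.04, 4.99 and 5.03 in corn oil rats. The highest and the lowest value were both from treated rats. The fold change was -0.0014 ± 0.07, with a 95% interval of -0.17 to 0.17. This value comes from the brightest of 3 probes, and the others differ from it, as given below.

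The Gadd45 genes encode small stress sensors that bind PCNA, p21 and the kinase MAP3K4. Gadd45a, the member that p53 controls directly, was at 3.09, 3.00 and 3.28 in carbon tetrachloride rats and at 3.22, 3.25 and 3.25 in corn oil rats. The corn oil values lay close together, with treated values on both sides, and the fold change was -0.12 ± 0.09. Within slide 1 it was -0.19, with both treated values below all corn oil values, and an adjusted p of 0.728 in limma. Gadd45b, better known as a target of NF-kappaB and TGF-beta, was at 0.42, 0.13 and 0.17 in carbon tetrachloride rats and at -0.017, 0.26 and 0.095 in corn oil rats. Its fold change was 0.13 ± 0.12 and the groups overlapped. Gadd45g was at 2.70, 1.86 and 2.00 in carbon tetrachloride rats and at 2.65, 2.24 and 2.35 in corn oil rats. The first rat of each group was the highest in it. The fold change was -0.23 ± 0.24, and without carbon tetrachloride replicate 1 it was -0.48, with an adjusted p of 0.855 in limma. The 3 members of the family thus had fold changes of different sign, none past the threshold.

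The remaining arrest genes varied more between rats than between treatments. Btg2, an antiproliferative cofactor of mRNA deadenylation, lay between 0.034 and 0.54 in carbon tetrachloride rats and between 0.15 and 0.43 in corn oil rats, with a fold change of -0.026 ± 0.15. Plk2, a polo-like kinase induced by stress, lay between -3.90 and -3.09 in carbon tetrachloride rats and between -4.03 and -3.17 in corn oil rats, with 0.15 ± 0.31. Plk3, another kinase of that family, had 0.031 ± 0.42. It was at -0.074, -1.02 and -1.36 in carbon tetrachloride rats and at -0.76, -0.31 and -1.48 in corn oil rats, so rats of the same treatment differed by more than a doubling. Its 95% interval of -1.01 to 1.07 was the only one of the 25 that reached beyond a 2-fold change. Rprm, which encodes reprimo, a mediator of arrest in G2, was well above background on 1 of 3 carbon tetrachloride arrays and 2 of 3 corn oil arrays and was not tested. Sesn1, a sestrin that limits mTORC1 signalling, matched no probe.

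Gdf15, a secreted stress hormone of the TGF-beta superfamily, was at -0.49, -0.24 and -0.028 in carbon tetrachloride rats and at -0.33, -0.22 and 0.36 in corn oil rats. The highest value came from a corn oil rat, and the fold change was -0.19 ± 0.22 (95% interval -0.72 to 0.34). The other tested probe of Gdf15 gave -0.37 ± 0.26. Phlda3, a repressor of the survival kinase AKT, lay between -3.18 and -2.85 in carbon tetrachloride rats and between -3.27 and -2.84 in corn oil rats, with a fold change of -0.041 ± 0.15.

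In the mitochondrial route to apoptosis, Bax, whose protein permeabilises the outer mitochondrial membrane, was at 3.02, 2.93 and 3.04 in carbon tetrachloride rats and at 3.01, 3.06 and 3.01 in corn oil rats. The groups overlapped, with a fold change of -0.029 ± 0.066 and an interval of -0.19 to 0.13. Bbc3, which encodes the BH3-only activator PUMA, was at -0.23, -0.20 and 0.10 in carbon tetrachloride rats and at -0.31, -0.15 and -0.10 in corn oil rats. One treated rat was higher than the rest, and the fold change was 0.08 ± 0.12. Pmaip1, which encodes the BH3-only protein NOXA, was well above background on 0 of the 6 arrays and has no fold change.

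On the survival side, Mcl1 encodes a short-lived protein that restrains BAX and BAK. It was at 1.88, 1.76 and 1.83 in carbon tetrachloride rats and at 1.55, 1.77 and 1.62 in corn oil rats. Corn oil replicate 2 lay just above the lowest treated value and the other control values lay below all treated ones. The fold change was 0.18 ± 0.083 (95% interval -0.026 to 0.38) with a limma adjusted p of 0.798, and the other probe of Mcl1 gave 0.23 ± 0.10. Bcl2l1, which encodes BCL-XL, lay between 5.35 and 5.41 in carbon tetrachloride rats and between 5.25 and 5.40 in corn oil rats, with 0.049 ± 0.07. All 6 of its tested probes had positive fold changes, 0.026 to 0.17, and for the dimmest of them the groups did not overlap. Apaf1, the apoptosome scaffold that activates caspase 9, lay between -2.37 and -1.96 in carbon tetrachloride rats and between -2.15 and -2.07 in corn oil rats, with -0.069 ± 0.12.

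Aen, a nuclease that p53 induces and that helps to degrade DNA in apoptosis, had the second highest fold change. It was at 3.24, 2.84 and 2.87 in carbon tetrachloride rats and at 2.48, 2.95 and 2.60 in corn oil rats. Corn oil replicate 2 exceeded 2 of the treated rats, so the groups overlapped, and the fold change was 0.31 ± 0.17 with an adjusted p of 0.820 in limma. Within slide 1 it was 0.37. All 3 probes of Aen had a positive fold change, 0.31 ± 0.17, 0.17 ± 0.095 and 0.25 ± 0.12 from the brightest to the dimmest. For the dimmest the groups did not overlap. The promoter of Aen carries the decamer, as do those of Cdkn1a, Ccng1 and Gadd45a above and of Ei24. Ei24, a membrane protein of the endoplasmic reticulum, had -0.065 ± 0.072. Whether the decamer bears on any of these values was not tested.

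**Figure D2:**
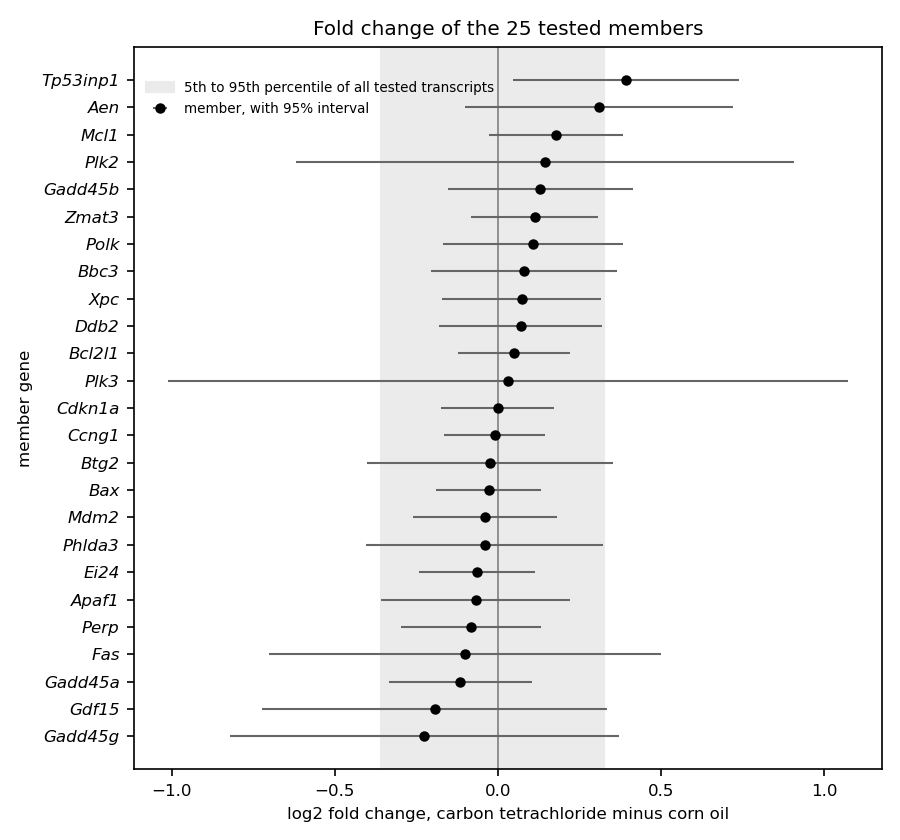
Fold change of the 25 tested genes in log2 units, carbon tetrachloride minus corn oil, with 95% intervals from limma and, in grey, the 5th to 95th percentile of all tested transcripts (-0.36 to 0.32). Each gene is drawn by its brightest probe. Among these, only Tp53inp1 has an interval that leaves out 0, and only it lies outside the grey band. The second brightest probe of Cdkn1a, at 0.47, is not drawn here.

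Of the receptors, Fas, the death receptor of Fas ligand and a p53 target, was at -2.88, -2.39 and -2.52 in carbon tetrachloride rats and at -2.24, -2.25 and -3.00 in corn oil rats. The lowest value came from a corn oil rat, and the fold change was -0.10 ± 0.25. Without that rat, corn oil replicate 3, the groups did not overlap and the fold change was -0.35, with an adjusted p of 0.706 in limma. Without carbon tetrachloride replicate 1 it was 0.039, so single arrays decide the value. A dimmer probe of Fas gave -0.40 ± 0.18, with groups that did not overlap but with only 2 of 3 treated arrays well above background. Perp, a membrane protein of desmosomes and a p53 target, lay between 4.94 and 5.10 in carbon tetrachloride rats and between 5.02 and 5.22 in corn oil rats, with -0.082 ± 0.088. Tnfrsf10b, a receptor of the ligand TRAIL, and Eda2r, a receptor of ectodysplasin, matched no probe.

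In DNA repair, Ddb2, the damage sensor of nucleotide excision repair, was at -2.12, -1.85 and -2.14 in carbon tetrachloride rats and at -2.17, -2.06 and -2.08 in corn oil rats. Carbon tetrachloride replicates 1 and 3 lay inside the corn oil range and replicate 2 above it, and the fold change was 0.069 ± 0.10. Xpc, which recognises distorted DNA in the same pathway, lay between 0.36 and 0.64 in carbon tetrachloride rats and between 0.33 and 0.52 in corn oil rats, with 0.072 ± 0.10. Polk, which encodes a polymerase that copies past lesions, lay between -0.24 and 0.068 in carbon tetrachloride rats and between -0.36 and -0.13 in corn oil rats, with 0.11 ± 0.11. By the brightest probe, all 3 repair genes had positive fold changes of at most 0.11, none past the threshold. The other tested probe of Xpc gave -0.063 ± 0.070, and that of Polk 0.25 ± 0.20.

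The intervals give, for each gene taken alone and by its brightest probe, the range of changes that the values of that probe allow. For 18 of the 25 genes the 95% interval lay inside a 1.5-fold change in either direction, and for 24 inside a 2-fold change. The 7 genes with wider intervals than 1.5-fold were Gadd45g, Plk2, Plk3, Tp53inp1, Gdf15, Aen and Fas. Other probes of a gene are not covered: Cdkn1a is not among the 7, but its second brightest probe gave 0.47 ± 0.17. The fitted change was under 1.1-fold for 19 of the 25. Passing no test does not show that a gene was unaltered. The intervals are also not the limit of what could be called with 3 rats a group, because the threshold adjusts over all tested transcripts. Among markers of T, B and NK cells, Cd8b at -0.98 ± 0.086 did not pass it, with an adjusted p of 0.187 in limma.

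Genes with several probes showed how far a fold change depended on the probe. Of the 16 genes with over 1 tested probe, 8 had probes of both signs: Cdkn1a, Btg2, Plk3, Mdm2, Ccng1, Bax, Apaf1 and Xpc. For Cdkn1a, the second brightest probe was at 1.69, 1.36 and 1.42 in carbon tetrachloride rats and at 0.84, 1.37 and 0.85 in corn oil rats. Corn oil replicate 2 lay within the treated values and the other control rats lay below them, which gave 0.47 ± 0.17. In limma over all 42400 tested probes, the unadjusted p of this probe was 0.0359 and its adjusted p was 0.778. The dimmest probe gave 0.17 ± 0.24, and the mean of the 3 probes 0.21. All 3 match the same transcript accession, and the files do not show which of them follows the p21 mRNA best.

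The second probe of Ccng1 split the rats without regard to treatment. It was at 1.42, 1.43 and -0.89 in carbon tetrachloride rats and at 1.53, -0.78 and -0.96 in corn oil rats. There were 3 high and 3 low arrays, with both kinds in each group and nothing between, while the brightest probe of the same gene stayed between 1.86 and 1.95. The fold change of the second probe, 0.72 ± 0.91, therefore describes how the split fell between the groups. Its cause was not tested.

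**Figure D3:**
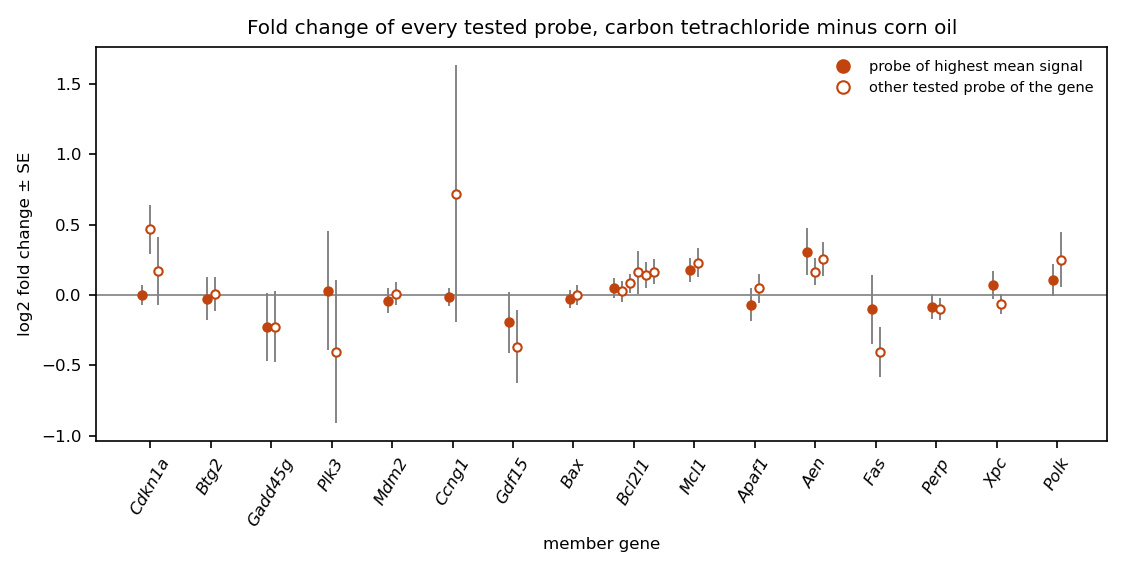
Fold change in log2 units with its SE for every tested probe of the 16 genes with over 1, filled for the brightest probe and open for the others. Cdkn1a has 1 probe at -0.0014 and another at 0.47, Ccng1 has a probe at 0.72 with an SE of 0.91, and the 3 probes of Aen and both of Mcl1 lie above 0.

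The genes of p53 control gave no called change either. Of 22 listed genes 17 were tested, 8 with a positive and 9 with a negative fold change, a median of -0.0088 and 0 past the threshold. Mdm4, the partner of MDM2, had a fold change of 0.059 ± 0.074. The genes of smallest p were Atm, the kinase that signals double-strand breaks, at -0.18 ± 0.12 and the acetyltransferase gene Crebbp at 0.10 ± 0.071. p53 is controlled largely through the stability of its protein, which these arrays do not measure.

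Of 33 further genes known or reported as p53 targets, 30 were tested and 0 passed, with 14 positive, 16 negative and a median of -0.015. Ccnd1, which encodes cyclin D1, was at 3.62, 3.49 and 3.44 in carbon tetrachloride rats and at 2.90, 2.51 and 2.98 in corn oil rats. The groups did not overlap, with 0.72 ± 0.14 and an adjusted p of 0.689 in limma. Cyclin D1 promotes the cell cycle and is induced by many signals other than p53. Tp53i13 had 0.37 ± 0.089, with treated values of -0.93, -0.83 and -0.73 and corn oil values of -1.28, -1.08 and -1.23, again without overlap, and an adjusted p of 0.714. In this list 4 of 30 genes did not overlap between the groups, 3 higher and 1 lower, where 12.8% of all transcripts did not.

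Relatives of the 30 listed genes, such as other sestrins, cyclin G2 and other CDK inhibitors, were tested for 16 of 19 genes, with 0 past the threshold and a median of -0.037. Zmat4, a relative of Zmat3, had 0.55 ± 0.16 and an adjusted p of 0.768 in limma. Rprml, a relative of Rprm, was well above background on 0 of 3 carbon tetrachloride arrays and 3 of 3 corn oil arrays and was at least 1.32-fold lower in carbon tetrachloride rats, with an adjusted p of 0.753. It entered the test through the corn oil group alone, which favours that direction, so its p is no independent evidence of it.

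The machinery of apoptosis was also without a call. In the BCL2 family 14 of 16 listed genes were tested, with 6 positive, 8 negative, 0 past the threshold and a median of -0.034. Bcl2, the founding survival gene, had 0.15 ± 0.089, Bcl2l14 -0.46 ± 0.29, and Bak1, the partner of Bax in the mitochondrial membrane, 0.064 ± 0.087. All 16 caspase and apoptosome genes were tested, with 5 positive, 11 negative, 0 past the threshold and a median of -0.030. The initiator Casp9 had 0.010 ± 0.071. Of the inhibitors of apoptosis 5 of 6 were tested and 0 passed. Xiap, which blocks caspases, was at -0.75, -0.93 and -0.78 in carbon tetrachloride rats and at -1.03, -1.04 and -0.98 in corn oil rats, which did not overlap, with 0.20 ± 0.076 and an adjusted p of 0.791 in limma. Birc3, which encodes cIAP2, had -0.27 ± 0.15.

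Of 14 genes of the death receptor pathway 11 were tested, with 4 positive, 7 negative, 0 past the threshold and a median of -0.16, and 4 were lower without overlap of the groups, as were 5.27% of all transcripts. Ripk3, the kinase of necroptosis, was at -0.46, -0.53 and -0.54 in carbon tetrachloride rats and at -0.27, -0.22 and -0.21 in corn oil rats. The groups did not overlap, with -0.28 ± 0.063 and an adjusted p of 0.697 in limma. Faslg, which encodes Fas ligand and is made mainly by T and NK cells, was at -4.00, -4.49 and -4.24 in carbon tetrachloride rats and at -3.37, -3.03 and -3.79 in corn oil rats, with -0.85 ± 0.22 and an adjusted p of 0.753. Beside these values stand markers of T, B and NK cells, of which 18 of 18 tested had lower means in carbon tetrachloride rats, with 0 past the threshold, and the summed signal of the list, as a multiple of the 75th percentile, was 3.58 to 3.68 there and 4.58 to 5.43 in corn oil rats. Of the 18, 4 (Cd3e, Cd2, Cd5 and Tnfrsf17) passed the filter through the corn oil group alone, which favours a lower value, and the other 14, well above background on all 6 arrays, also had lower means. Among these 14, Cd8b and Cd247, with the smallest p, had -0.98 ± 0.086 and -0.79 ± 0.077. The part of these cells in the values of Faslg, Ripk3 or Fas was not tested. Macrophage markers summed to 91.5 to 104 in carbon tetrachloride rats and 88.3 to 126 in corn oil rats. Sums of this kind follow the brightest probes of a list. On the same scale Lyz2 alone was at 65.8 to 74.3 in carbon tetrachloride rats and 65.2 to 91.1 in corn oil rats. Of 11 macrophage markers tested, 4 were higher and 7 lower. Among them were Itgam, which passed the filter through the carbon tetrachloride group alone, at 1.06 ± 0.64 and Aif1 at -0.25 ± 0.16.

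Of 25 genes of excision repair and bypass synthesis 19 were tested, with 14 positive, 5 negative, a median of 0.077 and 0 past the threshold. Rad18, a ubiquitin ligase that switches on bypass of lesions, was at -3.26, -3.25 and -3.23 in carbon tetrachloride rats and at -3.47, -3.40 and -3.57 in corn oil rats. The groups did not overlap, with 0.23 ± 0.071 and an adjusted p of 0.768 in limma. Ercc1, part of the nuclease that cuts beside a lesion, had 0.12 ± 0.064. Of the 19 genes, 3 were higher and 1 was lower without overlap of the groups, against 7.54% higher and 5.27% lower among all transcripts.

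**Figure D4:**
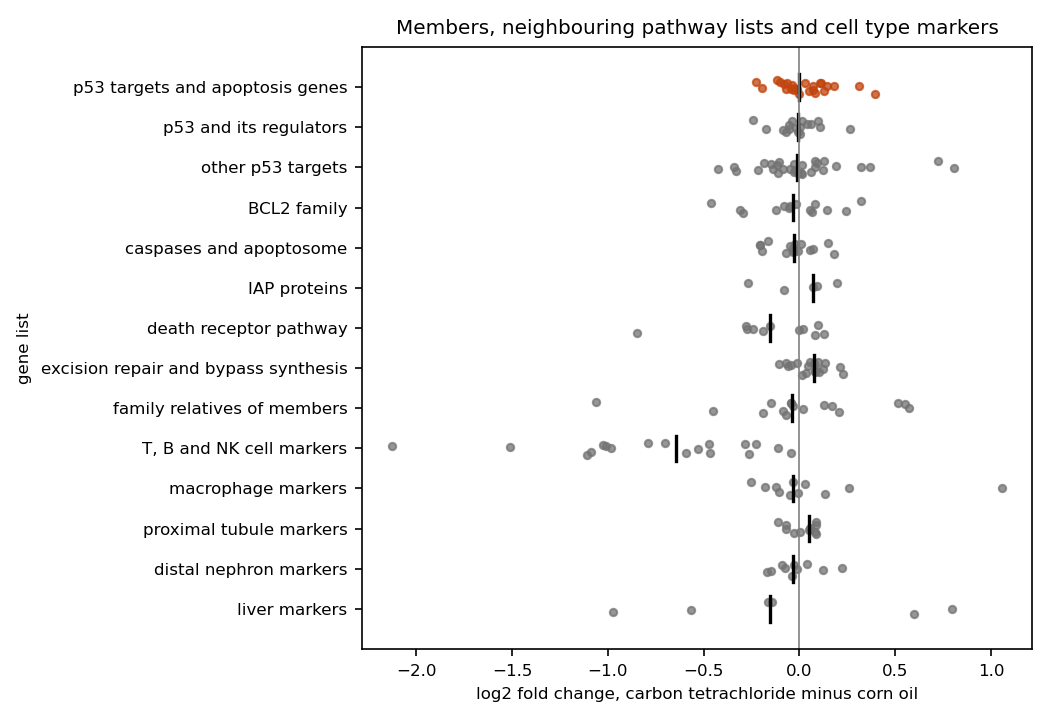
Fold change in log2 units, carbon tetrachloride minus corn oil, of every tested gene of the p53 target and apoptosis set, of the neighbouring pathway lists and of cell type markers, with a bar at each median. The p53 targets and apoptosis genes lie between -0.23 and 0.39 around a median of -0.0014, the death receptor list has its median at -0.16, and the T, B and NK cell markers all lie below 0.

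Markers of the tubule and of liver give the tissue behind these values. Proximal tubule markers summed to 2210 to 2287 in carbon tetrachloride rats and 2120 to 2250 in corn oil rats, with 7 of 11 positive, and Slc22a8, an organic anion transporter gene, had 0.08 ± 0.074 and Kap 0.087 ± 0.08. The 10 distal nephron markers summed to 492 to 699 in carbon tetrachloride rats and 521 to 662 in corn oil rats, with Scnn1a at 0.22 ± 0.11 and Atp6v1b1 at -0.17 ± 0.12. Of 9 liver markers 6 were tested, 2 positive and 4 negative with a median of -0.15. Their sums were 8.39 to 18.9 in carbon tetrachloride rats and 9.80 to 35.4 in corn oil rats. The sum of 35.4, in corn oil replicate 3, held Tf at 19.1 and Cyp2c11 at 15.4. Apoa1 had 0.80 ± 0.24 and Hpx 0.60 ± 0.21. On the negative side Cyp2c11 had -0.98 ± 1.61, Apob -0.57 ± 0.24, Tf -0.16 ± 0.47 and Fgb -0.14 ± 0.16. Ttr and Serpina1 were well above background on 0 arrays. Genes of these lists passed the threshold in 0 cases.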

How the data were processed

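The scanner files hold spot intensity as deposited by the authors, extracted with Agilent Feature Extraction 10.7.1.1 per the file headers (10.7 per the submitters' processing notes). The signal used is Agilent's processed signal. The table of the series deposited by the authors is an intensity as well. Dividing an array's processed signal by 1 constant, 1015 to 1092, gives its column of that table, with medians of 0.116, 0.115 and 0.111 for carbon tetrachloride replicates 1 to 3 and 0.118, 0.111 and 0.114 for corn oil replicates 1 to 3, so scale, centring and direction are known. It has 0 columns of other samples. Other flags were used as deposited: 1439 control spots and outlier spots (0 to 25 an array) were left out.

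From these, log2 values minus the 75th percentile of each array were computed. Probes were named by matching accessions, without versions, to RefSeq genes of GRCr8, used for names only (28206 of 61537 matched). A gene was represented by the probe of highest mean over the 6 arrays, and tested if either group had that probe well above background on its 3 arrays. Two-sided tests came from limma 3.58.1 under R 4.3.3, through lmFit and then eBayes. An adjusted p (Benjamini-Hochberg) under 0.05 passed, and the code was tested on simulated data. A bound ("at least") sets the brighter mean against, per array, the higher of the dim probe's value and the lowest value well above background. Promoters come from RefSeq (GRCr8), matched by symbol. Members and gene lists were chosen with earlier results of these data known. The rule for named genes gives every member, values per sample for 12 fixed members and for those with separate groups or an unadjusted p under 0.05, and up to 2 genes of smallest p per list. Others given per sample were picked after their values were seen. Some genes that the rule names are not reported here. The promoter rule took members with separate groups, which left none in the table, so promoters were chosen by the decamer instead. Genes in several lists count in each. The submitters describe the 3 samples of a group as separate biological replicates, and the p-values rest on their spread.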

Additional observations from a re-analysis of the deposited data

How the results depend on the processing

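Of the p53 targets and apoptosis genes, 0 passed the threshold in limma under any of the 19 alternatives, with between 0 and 2 genes at an unadjusted p under 0.05 and a lowest adjusted p of 0.656, for Tp53inp1 without corn oil replicate 3. The genes at that unadjusted p differed: Tp53inp1, higher, under most settings, Gadd45a, lower, in the slide fits, and 0 genes with the replicate block or without corn oil replicate 1. The count of 1 transcript past the threshold was 0 with normexp under either scaling, with no filter, with the filter on all 6 arrays, with robust fitting and a trend, with the replicate block, with the slide block and within slide 1, and ran from 0 to 2 without single replicates. The unadjusted p was under 0.05 for 1521 to 2324 transcripts over these settings. The count of 1 gene without overlap was 0 with median scaling, 2 with normexp under either scaling (Tp53inp1 and Mcl1, without Zmat3) and 4 within slide 1, where 25.2% of all transcripts did not overlap, and ran from 2 to 5 without single replicates, where groups of 2 against 3 raise that share for all transcripts too. The median of -0.0014 was 0.021 with normexp then quantile, with the slide block and within slide 1, and ran from 0.0051 to 0.026 without single replicates. Leaving out carbon tetrachloride replicate 3, alone on its slide, gives these slide fits as well. Of 472 values of single genes under alternatives, further probes included, 54 had the other sign than the value given, and 11 of the 25 genes kept their sign in every setting, among them Tp53inp1 (0.31 to 0.53), Aen (0.18 to 0.45), Mcl1 (0.13 to 0.24) and Gadd45a (-0.19 to -0.054). The cause of these shifts was not tested, apart from settings that use fewer arrays or transcripts by construction. Deviations of carbon tetrachloride and corn oil arrays of the same number correlated at -0.097 to -0.023, and those of unlike number at -0.045 to 0.13. With 3 arrays a group, such values cannot decide whether the numbers pair the rats. The paired fit (replicate block) called 0 transcripts. Signal over background limits Rprm and Pmaip1.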
